A study of Mus musculus with 3 samples.

Results

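The insulin-like growth factor (IGF) system was described in single-cell RNA-seq of mouse ovary through 10 of its genes, chosen by name from the 24958 genes of the deposited expression table. They were the ligands *Igf1* and *Igf2*, the receptors *Igf1r* and *Igf2r*, the binding proteins *Igfbp2*, *Igfbp3*, *Igfbp4*, *Igfbp5* and *Igfbp7*, and the protease *Pappa*. IGFs act in the ovary as local growth factors that raise the response of granulosa cells (GCs) to FSH. Both ligands signal through the tyrosine kinase receptor encoded by *Igf1r*, whereas the product of *Igf2r* binds IGF2 and carries it to lysosomes without such signalling. Secreted binding proteins hold the ligands in the extracellular fluid, and pregnancy-associated plasma protein A, the product of *Pappa*, cleaves IGFBP4 and IGFBP5 and thereby frees IGF. IGFBP7 is related to these proteins but binds IGFs weakly, and its transcript is known from blood vessels.

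The labels name 3 libraries of mouse ovary, collected 0, 1 and 6 h after an injection of hCG, which mimics the LH surge and starts ovulation, with 1 library per time point. The study's text describes ovaries of 21-day-old Kunming mice taken 48 h after PMSG, a gonadotropin with FSH activity, and whether the ovaries taken after hCG had received PMSG is not stated. How many animals were pooled in a library is not stated either. The table holds 31776 cells whose barcodes end in 1 (10384 cells), 2 (9917 cells) or 3 (11475 cells), and no source used here ties an ending to a library, so the endings are called barcode sets 1, 2 and 3 and carry no time point. Where a barcode set is 1 library, an effect of time cannot be told apart from other differences between libraries, and no difference between sets has a replicate check, so no test was made.

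Levels are means over cells of UMIs per 10000 UMIs of the cell, and the range in brackets after a level or ratio is its 95% interval for counting error alone. Levels were compared between cells and never between genes, since transcripts differ in length and capture. Cells were gated on the markers of ovarian cell types, with the IGF genes left out, which gave 11272 granulosa-like cells, 8391 stroma-like cells, 2000 theca-like cells, 1519 cells in both the stroma gate and that of smooth muscle and pericytes, 1595 endothelial-like cells, 378 smooth muscle and pericyte-like cells and 355 myeloid-like cells. A further 4881 cells passed no gate and 1263 passed other combinations of gates. Within 0.05 above the cut-off of the granulosa gate lay 2167 granulosa-like cells, and within 0.05 below it 1810 cells that passed no gate. The latter count among all other cells in the ratios of granulosa over other cells. *Inha*, the inhibin alpha subunit of GCs and a marker of the granulosa gate, was at 55.9 in granulosa-like cells, 12.4 in theca-like cells, 1.72 in stroma-like cells and 1.88 in endothelial-like cells. The last 2 values are 3.07% and 3.36% of the granulosa level. In theca-like cells *Inha* was at 16.7%, 20.3% and 39.9% of the granulosa level in sets 1, 2 and 3, and in myeloid-like cells at 2.32%, 4.96% and 6.07%. How much of the theca values below comes from GC transcripts was not tested. *Cyp17a1*, the androgen-making enzyme of theca and a marker of the theca gate, was at 36.2 in theca-like cells and 0.290 in granulosa-like cells. Since the gates used both genes, their contrast between classes follows from the gating and is no check of it.

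The barcode sets differed strongly in genes that respond to LH or hCG. In granulosa-like cells *Areg*, an EGF-like factor of ovulation, was at 0.0163, 13 and 0.10 in sets 1, 2 and 3, and *Star*, which brings cholesterol into mitochondria, was at 0.0868, 4.57 and 6.17. *Lhcgr*, the LH receptor, was at 1.29, 0.738 and 0.260. The clusters that held most granulosa-like cells also differed. Set 1 was led by clusters marked by *Rgs13* and *Tex14*, by *Comp* and *Cyp19a1*, and by *Inhbb* and *Ihh*, set 2 by those marked by *Elovl4* and *Nts*, by *Nrn1* and *Ptges*, and by *Ihh* and *Grem1*, and set 3 by those marked by *Kctd14* and *Gatm*, by *Lyve1* and *Npy*, and by *Nts* and *Zpld1*. Cells with the profile of antral mural GCs (*Lhcgr*, *Nppc*, *Cyp19a1*, *Inhba*, *Cyp11a1*) numbered 1790, 1782 and 359. GCs with none of the follicular profiles numbered 1188, 911 and 2097. The part of this make-up in any difference between sets was not tested. Values are also given within profiles, but marker scores were scaled within each set, and markers such as *Lhcgr* differed between sets. A profile may thus hold unlike cells in each set.

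RefSeq (GRCm38.p6) lists 13 transcription starts for 9 of the 10 members, and the 250 bases before each were searched for short motifs on both strands, to show what the promoters of members with unlike patterns look like. The GC box GGGCGG lay before 6 of the 13 starts, against 32.742% of all 32851 promoters, in *Igf1r*, *Igf2*, *Igf2r*, *Igfbp2* and *Igfbp7*. TATAAA, the core of the TATA box, lay before *Igfbp4*, against 12.368% of all. TGANTCA, with any base at N, is a looser form of the AP-1 motif TGA(C/G)TCA of Fos and Jun proteins. It lay before a start of *Igf1* and before the second start of *Igfbp2*, against 6.749% of all. The match was TGAATCA in *Igf1*, which is not the AP-1 motif itself, and TGAGTCA in *Igfbp2*. Both lay in stretches that overlap annotated exons of the same gene. TGACG, a core of the cAMP response element, lay before *Igf2r* and a start of *Igf2*, against 17.765% of all, and CCAAT lay before starts of *Igf1* and *Igf2*, against 33.85%. A match is a run of letters and not a bound site. The 120 bases before 4 starts that overlap no annotated exon are printed 5′ to 3′ on the strand of the gene, with GC boxes in capitals for *Igf1r* (chr7:67952137-67952256, plus strand), *Igf2r* (chr17:12769707-12769826, minus strand) and *Igfbp7* (chr5:77408046-77408165, minus strand), and the TATA box in capitals for *Igfbp4* (chr11:99041124-99041243, plus strand).
Igf1r: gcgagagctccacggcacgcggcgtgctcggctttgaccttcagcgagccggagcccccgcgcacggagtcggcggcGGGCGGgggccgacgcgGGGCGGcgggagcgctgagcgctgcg
Igf2r: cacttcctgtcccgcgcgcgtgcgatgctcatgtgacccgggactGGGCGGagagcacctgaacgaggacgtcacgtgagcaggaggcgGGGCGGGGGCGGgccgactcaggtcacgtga
Igfbp7: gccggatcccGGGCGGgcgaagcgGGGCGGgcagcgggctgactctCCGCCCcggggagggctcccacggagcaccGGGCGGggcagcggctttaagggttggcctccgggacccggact
Igfbp4: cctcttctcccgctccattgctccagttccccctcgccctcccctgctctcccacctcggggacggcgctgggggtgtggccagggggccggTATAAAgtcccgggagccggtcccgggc
The capitals start 43 and 26 bases before the start of *Igf1r*, 75, 31 and 25 bases before that of *Igf2r*, where the last 2 adjoin, 110, 96, 74 and 44 bases before that of *Igfbp7*, where the third is on the opposite strand, and 28 bases before that of *Igfbp4*.

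The members' transcripts were spread unequally over the ovary. GCs held 37.7% of all UMIs in the table and 52.2% of those of *Igf1r*, 43.1% of *Igf2r*, 41.1% of *Igf1*, 39.0% of *Pappa*, 37.3% of *Igfbp5* and 34.1% of *Igfbp2*. Endothelial-like cells, with 4.44% of all UMIs, held 65.9% of the UMIs of *Igf2*, 50.1% of *Igfbp3*, 18.2% of *Igfbp7* and 15.5% of *Igfbp4*. Stroma-like cells held 51.2% of the UMIs of *Igfbp4* and 43.3% of those of *Igfbp7*, against 22.6% of all UMIs. Theca-like cells held 37.2% of the UMIs of *Igfbp2*, against 9.72% of all. These shares follow the number and depth of the cells of each class as well as their levels.

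**Figure D1:**
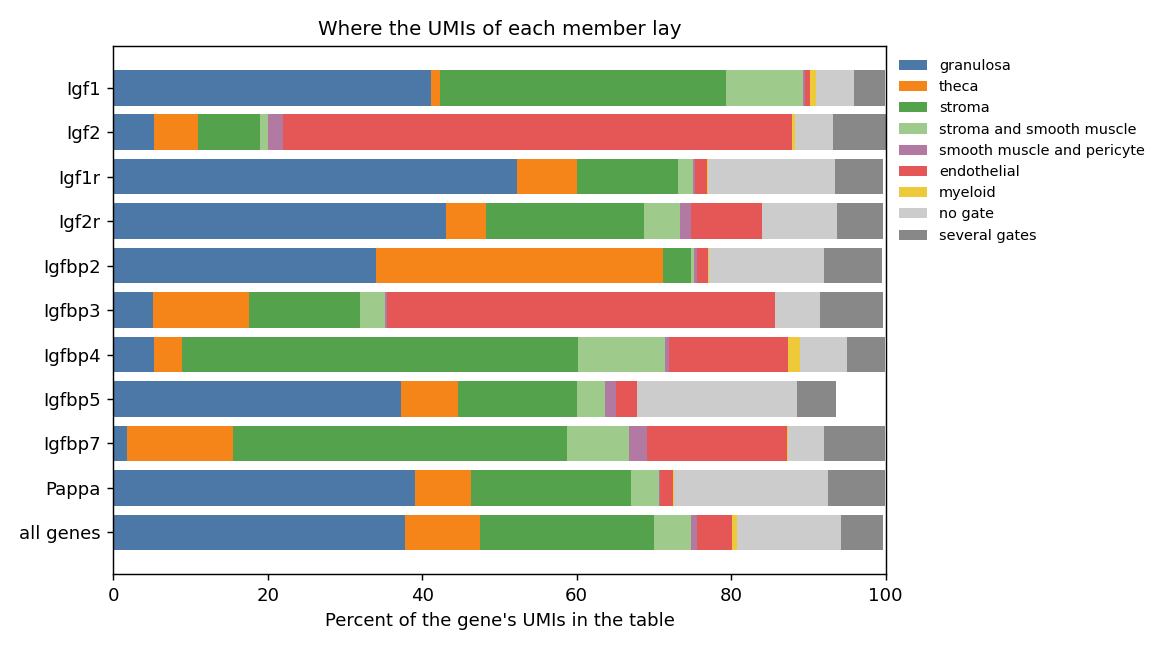
Percent of each member's UMIs (x axis) that lay in each marker-gated class, with all genes in the bottom bar for comparison; what is missing to the full width lay in rarer classes such as epithelial-like cells. The endothelial section is 65.9% for *Igf2* and 50.1% for *Igfbp3* against 4.44% for all genes, the theca section is 37.2% for *Igfbp2* against 9.72%, and the granulosa section is 1.76% for *Igfbp7* against 37.7%.

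Of the ligands, *Igf1* was found in GCs and stroma, and *Igf2* in vessels. In granulosa-like cells *Igf1* was at 1.44 (1.39 to 1.49), 1.31 (1.26 to 1.36) and 1.15 (1.11 to 1.19) in sets 1, 2 and 3. In stroma-like cells it was at 2.07 (1.98 to 2.16), 1.53 (1.46 to 1.61) and 2.69 (2.61 to 2.76). Stroma was thus above granulosa in each set. Cells in the gates of both stroma and smooth muscle were at 2.18, 1.35 and 3.91, and myeloid-like cells at 1.59 (1.13 to 2.17), 1.89 (1.34 to 2.59) and 0.642 (0.386 to 1.00). Theca-like cells had 0.175, 0.137 and 0.132. They were the lowest class over all sets, but in set 2 they did not differ beyond counting error from smooth muscle and pericytes (ratio of the latter over theca 1.28, 0.585 to 2.54), nor in set 3 from endothelium, which was at 0.125 (ratio of theca over endothelium 1.06, 0.637 to 1.81). Over all sets the order ran from the cells in both gates to stroma, then myeloid and granulosa, which did not differ beyond counting error (ratio 1.02, 0.817 to 1.25), and then to smooth muscle and pericytes, endothelium and theca. In set 1 cells in both gates, stroma and myeloid cells could not be separated by counting error from their neighbours in the order.

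Granulosa over all other cells, the ratio of *Igf1* was 0.981 (0.954 to 1.01) in the whole table, but 1.2 and 1.38 in sets 1 and 2 and 0.664 in set 3. At a depth of 3000 UMIs per cell, reached by thinning, 26.2% (25.4 to 27.1) of granulosa-like cells had an *Igf1* UMI, against 43.1% before thinning, and 3.92% of theca-like cells, with 498 and 34 shallower cells left out and median depths of 6742.5 and 10751.5 UMIs. The share in GCs was thus well above that in the deeper theca-like cells.

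Among clusters in which granulosa-like cells were the commonest class, *Igf1* differed widely within each set. Cluster levels cover all cells of a cluster, and 49.2% of the cells of the *Lyve1* cluster of set 3 were granulosa-like. Clusters marked by *Inhba* or *Cyp19a1* were not alike: in set 1 the one led by *Comp*, *Cyp19a1* and *Tnfsf11* was at 0.508 (0.442 to 0.580), and the one led by *Inhbb* and *Ihh* at 2.65 (2.47 to 2.85). In set 2 the cluster led by *Comp* and *Npy* was at 0.418 (0.356 to 0.486), and those led by *Elovl4* and *Nts* and by *Ihh* and *Grem1* at 2.02 (1.91 to 2.14) and 2.17 (2.01 to 2.34). In set 3 the cluster with *Lyve1*, *Npy* and *Comp* was at 0.292 (0.255 to 0.333), those with *Ptx3*, *Grem1* and *Spp1* at 2.49 (2.21 to 2.79) and 2.58 (2.22 to 2.99), and that with *Ihh* and the mitotic genes *Top2a* and *Mki67* at 2.67 (2.47 to 2.87). The clusters with *Comp* among their leading genes were thus low in each set, but not they alone, since the *Kctd14* cluster of set 2 was at 0.221 (0.146 to 0.32). Cells with mitotic genes were above other GCs in each set, at 2.29, 1.81 and 1.48 against 1.31, 1.25 and 1.08. In stroma, clusters with the highest *Igf1* were led by *Efemp1* and *Cxcl12* in set 1, at 4.81 (4.39 to 5.25), and by *Bdnf* and *Wnt5a* in set 3, at 4.23 (4.10 to 4.35).

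*Igf2*, a fetal growth factor that is expressed from the paternal allele, had 264 UMIs in the table. Endothelial-like cells had 0.149 (0.106 to 0.204), 0.158 (0.118 to 0.208) and 0.152 (0.0874 to 0.246) in sets 1, 2 and 3, and thus did not differ between sets beyond counting error. Granulosa-like cells had 14 UMIs in all, at a level of 0.00296 (0.00084 to 0.0074), and 3.06% of endothelial-like cells against 0.0464% of granulosa-like cells had a UMI at 3000 UMIs a cell. Within endothelium *Igf2* was higher in small clusters. Those led by *Ccl21a*, *Mmrn1*, *Lyve1* and *Prox1*, genes known from lymphatic vessels, were at 0.890 (0.570 to 1.33) in set 1 and 0.903 (0.498 to 1.51) in set 2. Those led by *Eln*, *Gja4* and *Sox17*, genes known from arteries, were at 0.749 (0.543 to 1.01) in set 2 and 0.987 (0.555 to 1.62) in set 3. The clusters that held most endothelial-like cells of sets 2 and 3, with *Ctla2a*, *Kdr* and *Flt1* among their leading genes, were at 0.00405 and 0.0105, while that of set 1, of 425 cells, was at 0.0907 (0.0496 to 0.152). The reads of *Igf2* (7:142650766-142666816, minus strand) cannot be told apart here from those of *Gm49394*, which overlaps it on the same strand.

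**Figure D2:**
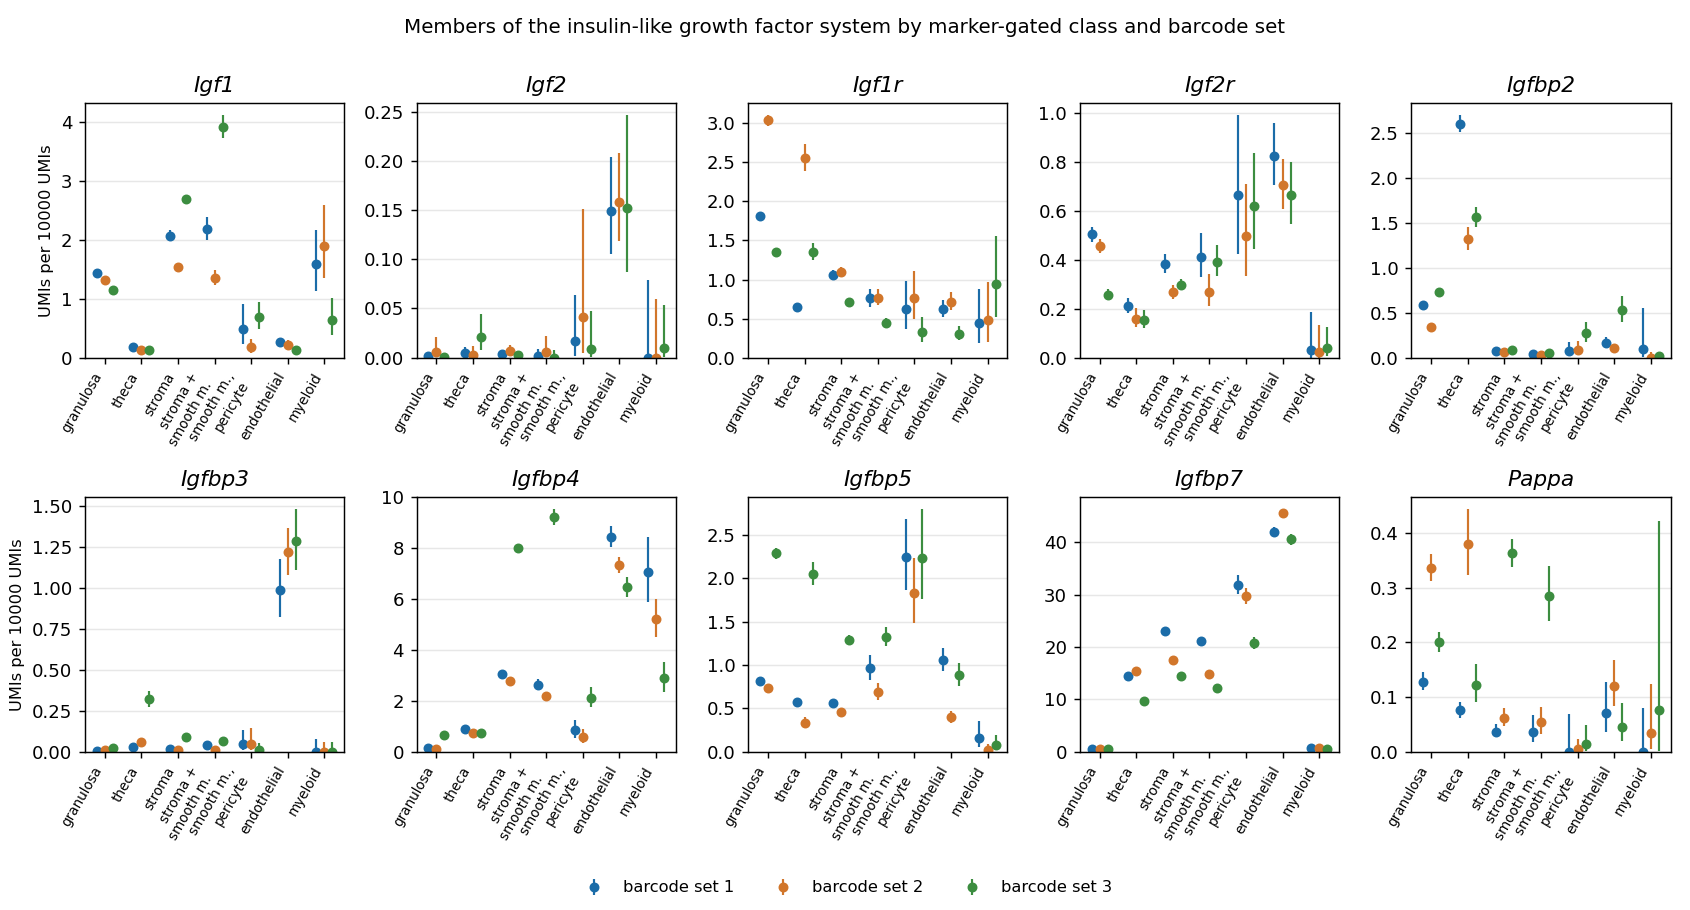
Level of each member (y axis, UMIs per 10000 UMIs, linear scale with its own range per panel) in 7 marker-gated classes of 50 or more cells, for barcode sets 1, 2 and 3 (colours); points are means over cells and bars 95% counting intervals. *Igf2*, *Igf2r*, *Igfbp3* and *Igfbp7* have their highest point in endothelial-like cells in each set, *Igfbp2* in theca-like cells, and set 2 stands above sets 1 and 3 in *Igf1r* of granulosa-like (3.04) and theca-like (2.55) cells.

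Of the receptors, *Igf1r*, which transmits the signal of both ligands, was highest in GCs, and differed between barcode sets there and in theca. In granulosa-like cells it stood at 1.81 (1.76 to 1.87), 3.04 (2.97 to 3.11) and 1.35 (1.30 to 1.40) in sets 1, 2 and 3. Theca-like cells were at 0.646 (0.598 to 0.696), 2.55 (2.38 to 2.73) and 1.36 (1.25 to 1.47). Set 2 was thus the highest in both classes, and the lowest was set 3 in GCs but set 1 in theca. The theca-like cells of set 1 lay in a pair of clusters, with 55.1% in that led by *Cyp17a1*, *Gsta2* and *Insl3* and 38.0% in that led by *Mgat4c* and *Adh1*, whereas single clusters led by *Cyp17a1* held 94.0% and 83.3% of those of sets 2 and 3. By whole cluster *Igf1r* was at 0.779 (0.717 to 0.844) and 0.518 (0.456 to 0.586) in the former pair, and at 2.63 (2.48 to 2.80) and 1.38 (1.29 to 1.48) in the clusters of sets 2 and 3. Stroma-like cells were at 1.05, 1.09 and 0.713, and endothelial-like cells at 0.619, 0.713 and 0.307. The ratio of granulosa over all other cells was 1.80 (1.76 to 1.85) in the whole table and 1.48, 2.03 and 1.63 within sets. In set 3 theca and granulosa did not differ beyond counting error (ratio 1.01, 0.919 to 1.10). At 3000 UMIs a cell, 42.0% of granulosa-like cells had an *Igf1r* UMI, against 64.9% before thinning, and the share was 38.1%, 55.4% and 32.0% in sets 1, 2 and 3.

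The difference of *Igf1r* between sets did not have the same direction in all GCs. In cells with the antral mural profile it was at 0.952 (0.895 to 1.01), 3.56 (3.44 to 3.67) and 1.42 (1.28 to 1.58), so that set 2 was 3.74-fold (3.49 to 4.0) above set 1. In cells with the preantral profile (*Amh*, *Gatm*, *Kctd14*, *Wt1*, *Slc18a2*) it was at 2.15, 2.05 and 1.14, with set 2 at 0.954 (0.842 to 1.08) of set 1. In cells with the atretic profile it was at 3.56 (3.33 to 3.80), 2.78 (2.55 to 3.03) and 1.21 (1.04 to 1.39), with a ratio of 0.783 (0.701 to 0.873). The order of the profiles also turned: atretic over antral mural was 3.74 (3.41 to 4.09) in set 1 and 0.783 (0.714 to 0.857) in set 2. The cluster led by *Comp* and *Npy* in set 2 had the highest level among granulosa clusters of at least 50 cells, 4.3 (4.09 to 4.52), and the cluster with *Comp* and *Cyp19a1* in set 1 had 0.769 (0.692 to 0.852).

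*Igf2r*, the clearing receptor for IGF2, was highest in endothelial-like cells, at 0.826 (0.706 to 0.960), 0.704 (0.609 to 0.810) and 0.665 (0.547 to 0.800) in sets 1, 2 and 3. These cells did not differ beyond counting error from smooth muscle and pericyte-like cells (ratio 1.23, 0.980 to 1.55, over all sets). Granulosa-like cells were at 0.504 (0.474 to 0.535), 0.456 (0.429 to 0.485) and 0.257 (0.236 to 0.279), so set 3 was at 0.510 (0.460 to 0.564) of set 1. Within GCs the antral mural profile was above the preantral one in sets 1 and 2, at 0.635 and 0.590 against 0.270 and 0.317, but not in set 3, at 0.270 (0.209 to 0.342) against 0.365 (0.304 to 0.434). Theca-like cells were at 0.212, 0.160 and 0.154, and myeloid-like cells were lowest, at 0.0323 (0.00957 to 0.0792) over all sets. *Airn*, a noncoding RNA on the opposite strand, overlaps *Igf2r* (17:12682406-12769664), and the strand used in counting is not stated.

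Of the binding proteins, *Igfbp2* was a theca and preantral GC transcript. Theca-like cells were at 2.60 (2.51 to 2.69), 1.32 (1.2 to 1.45) and 1.56 (1.45 to 1.67) in sets 1, 2 and 3. Granulosa-like cells were at 0.589 (0.555 to 0.624), 0.343 (0.319 to 0.368) and 0.729 (0.692 to 0.767), and theca was 3.75-fold (3.58 to 3.92) above granulosa over all sets. Stroma-like cells were at 0.0773, 0.0594 and 0.0850. At 3000 UMIs a cell, 38.4% of theca-like cells had an *Igfbp2* UMI, against 1.90% of stroma-like cells, whose median depth was 5879 UMIs. Within GCs the preantral profile was highest, at 1.70 (1.52 to 1.90), 1.24 (1.11 to 1.39) and 1.37 (1.26 to 1.5), against 0.680, 0.25 and 0.410 in the antral mural profile. The ratio of the 2 profiles was 2.51 (2.18 to 2.87), 4.97 (4.21 to 5.86) and 3.34 (2.70 to 4.17). Preantral cells were thus above antral mural cells in each set. In set 1 the theca cluster led by *Mgat4c* and *Adh1* was at 3.31 (3.15 to 3.47), and that led by *Cyp17a1*, *Gsta2* and *Insl3* at 1.68 (1.61 to 1.77).

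*Igfbp3*, the main IGF carrier of blood, was an endothelial transcript, at 0.985 (0.819 to 1.18), 1.22 (1.08 to 1.37) and 1.28 (1.11 to 1.48) in sets 1, 2 and 3. Over all sets endothelium was 10.2-fold (8.77 to 12) above theca, the next class. Theca-like cells were at 0.0302 (0.0211 to 0.0419), 0.0569 (0.0359 to 0.0857) and 0.320 (0.274 to 0.372), so set 3 was 10.6-fold (7.34 to 15.6) above set 1, on 194 and 39 UMIs. The theca cluster of set 3, led by *Cyp17a1*, *Ly6d* and *Akr1b7*, was at 0.412 (0.366 to 0.463). Granulosa-like cells were at 0.0115 (0.00854 to 0.0151), and 0 UMIs were found in 355 myeloid-like cells, where 3 UMIs would give a level of 0.0178. Among endothelial clusters *Igfbp3* was highest in those led by *Eln*, *Gja4* and *Sox17*, at 2.19 (1.80 to 2.64) in set 2 and 2.08 (1.53 to 2.77) in set 3. In the clusters led by *Ccl21a*, *Mmrn1* and *Lyve1* it was at 0.0959 (0.0198 to 0.281) in set 1 and had 0 UMIs in 29 cells of set 2, so *Igf2* and *Igfbp3* were both high in the former clusters and parted in the latter.

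*Igfbp4*, a substrate of PAPP-A that is known to oppose FSH-driven steroidogenesis, was high in stroma and endothelium and low in GCs. Endothelial-like cells were at 8.46 (8.06 to 8.87), 7.35 (7.04 to 7.67) and 6.47 (6.08 to 6.87) in sets 1, 2 and 3. Stroma-like cells were at 3.07 (2.96 to 3.17), 2.76 (2.67 to 2.86) and 8.0 (7.87 to 8.14). Endothelium was thus above stroma in sets 1 and 2 and below it in set 3. Myeloid-like cells were at 7.08 (5.90 to 8.44), 5.22 (4.5 to 6.01) and 2.89 (2.33 to 3.54). Their make-up differed, since clusters led by *C1qa* or *Lyz2* held 98.9% and 89.1% of them in sets 1 and 2, while in set 3 the *C1qa* cluster held 50.7% and one led by *Cd74* and *H2-Aa* 36.4%. These 2 clusters of set 3 were at 5.51 (4.62 to 6.53) and 0.436 (0.276 to 0.653) for *Igfbp4*, and at 1.11 (0.797 to 1.52) and 0.217 (0.112 to 0.378) for *Igf1*. The part of this make-up in the differences between sets was not tested. GCs stood at 0.129 (0.112 to 0.148), 0.113 (0.0966 to 0.131) and 0.653 (0.620 to 0.689), and their ratio over all other cells was 0.0814 (0.0776 to 0.0855). At 3000 UMIs a cell, 81.6% of endothelial-like cells and 6.00% of granulosa-like cells had an *Igfbp4* UMI. The share in GCs was 3.03%, 2.76% and 12.5% in sets 1, 2 and 3, while that in stroma was 49.5%, 47.7% and 73.7%.

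In set 3 *Igfbp4* of GCs was 5.06-fold (4.38 to 5.87) above set 1, and stroma was 2.61-fold (2.51 to 2.71) above. Both classes thus had more *Igfbp4* in set 3, and how far the stromal level accounts for the granulosa value was not tested. The difference was uneven within GCs. Cells with the atretic profile were at 0.0903 (0.0582 to 0.134), 0.223 (0.163 to 0.297) and 1.55 (1.37 to 1.74). Clusters with *Pik3ip1*, a marker of this profile, among their leading genes differed in make-up by set. In sets 1 and 2, 88.7% and 80.0% of their cells passed no gate, and in set 3 48.6% were granulosa-like. The part of this in the values was not tested. Expanding cumulus cells were at 0.103 (0.034 to 0.237) in set 2 and 1.13 (0.920 to 1.36) in set 3. Preantral cells were at 0.108, 0.109 and 0.383, and antral mural cells at 0.158, 0.0796 and 0.323. In set 3 the clusters with the most *Igfbp4* among granulosa clusters were led by *Angpt2* and *Clu*, at 2.48 (2.32 to 2.64), and by *Ptx3* and *Grem1*, at 2.85 (2.54 to 3.18). The cluster with *Lyve1*, *Npy* and *Comp* was at 0.190 (0.159 to 0.225). Cluster levels cover all cells of a cluster, and 48.6% of the *Angpt2* cluster and 49.2% of the *Lyve1* cluster were granulosa-like. How far cells outside the granulosa gate account for these cluster levels was not tested. The stroma cluster of set 3 led by *Bdnf* and *Wnt5a* was at 11.7 (11.5 to 12), and the endothelial clusters led by *Ccl21a* and *Mmrn1* at 20.2 (18.7 to 21.9) in set 1 and 17.6 (15.4 to 20.1) in set 2.

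*Igfbp5*, which also encodes a substrate of PAPP-A and is known from GCs of small and atretic follicles, was expressed in several classes. Smooth muscle and pericyte-like cells were at 2.25 (1.87 to 2.69), 1.83 (1.48 to 2.23) and 2.24 (1.76 to 2.80) in sets 1, 2 and 3. Granulosa-like cells were at 0.819 (0.784 to 0.855), 0.729 (0.695 to 0.764) and 2.29 (2.23 to 2.35), and theca-like cells at 0.571 (0.531 to 0.612), 0.333 (0.271 to 0.405) and 2.05 (1.92 to 2.19). In sets 1 and 2 smooth muscle was above granulosa, and in set 3 they did not differ beyond counting error (ratio of granulosa over smooth muscle 1.02, 0.816 to 1.30). Stroma-like cells were at 0.560, 0.459 and 1.29, and endothelial-like cells at 1.06, 0.399 and 0.884.

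Within GCs *Igfbp5* set apart the preantral cells, at 4.07 (3.80 to 4.36), 4.89 (4.61 to 5.18) and 4.0 (3.80 to 4.21), with set 2 the highest. Antral mural cells were at 0.555 (0.515 to 0.597), 0.174 (0.151 to 0.20) and 2.26 (2.07 to 2.45), so that preantral over antral mural was 7.34 (6.64 to 8.12), 28.1 (24.1 to 32.8) and 1.77 (1.61 to 1.96). Set 3 over set 2 was 13 (11 to 15.3) in antral mural cells and 0.818 (0.757 to 0.885) in preantral cells. The higher level of set 3 in GCs as a whole was thus seen within antral mural cells, while preantral cells were below their level in set 2. Preantral cells, with the highest levels, numbered 315, 350 and 649, however, and antral mural cells 1790, 1782 and 359. The part of these numbers in the level of GCs as a whole was not tested. A higher level in set 3 was also seen in cells with the atretic profile, at 0.30, 0.286 and 0.847, in mitotic cells, at 0.196, 0.219 and 1.37, and in GCs with none of the follicular profiles, at 0.439, 0.554 and 1.98. The last were 2097 of the 3609 GCs of set 3 and held 3540 of their 6481 *Igfbp5* UMIs, against 695 in antral mural and 1708 in preantral cells. By cluster, *Igfbp5* reached 8.38 (7.89 to 8.88) in the GC cluster of set 2 led by *Kctd14* and *Gatm*. Of its UMIs, 20.6% lay in cells that passed no gate. Clusters mostly of such cells, with *Sfrp4*, *Ptgfr* or *Akr1c18*, genes known from luteal cells, stood at 10.4 (10.0 to 10.8), 4.53 (4.15 to 4.94) and 2.79 (2.32 to 3.33) in sets 1, 2 and 3.

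**Figure D3:**
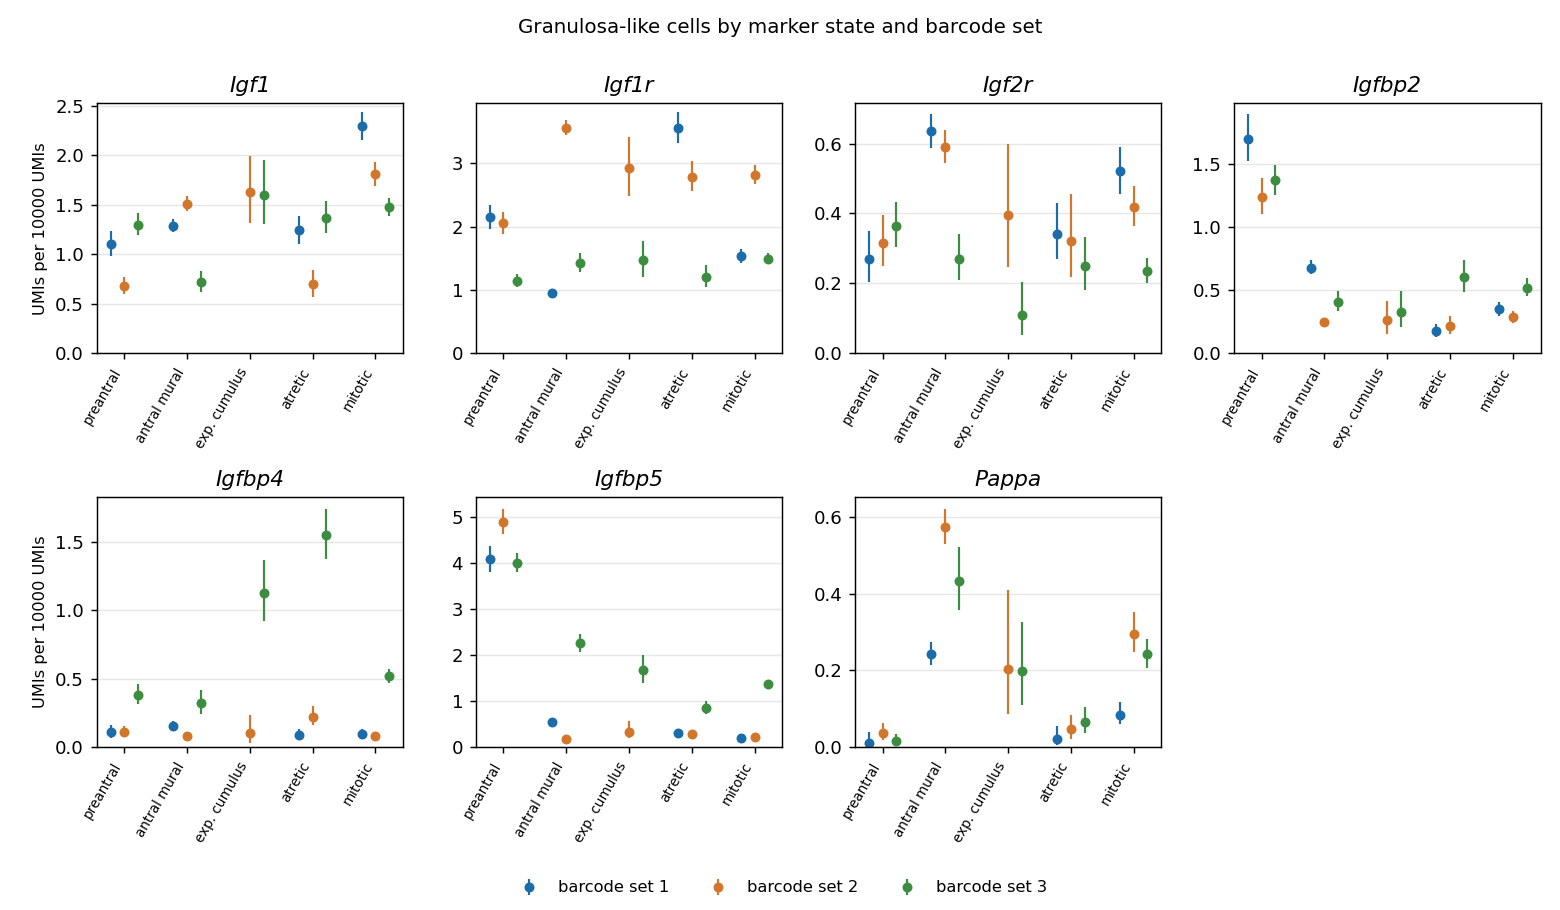
Level of 7 members (y axis, UMIs per 10000 UMIs, own range per panel) in granulosa-like cells of the preantral, antral mural, expanding cumulus, atretic and mitotic profiles, for barcode sets 1, 2 and 3 (colours); points are means over 50 or more cells and bars 95% counting intervals. In antral mural cells *Igf1r* is at 0.952, 3.56 and 1.42 and *Igfbp5* at 0.555, 0.174 and 2.26, whereas in preantral cells *Igfbp5* is at 4.07, 4.89 and 4.0, and *Igfbp4* in set 3 is at 1.55 in atretic and 1.13 in expanding cumulus cells.

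*Igfbp7*, a vascular member of the family, was highest in endothelial-like cells, at 42.1 (41.1 to 43.0), 45.6 (44.8 to 46.4) and 40.6 (39.6 to 41.6) in sets 1, 2 and 3. Smooth muscle and pericyte-like cells followed, at 31.9, 29.7 and 20.8, then stroma-like cells, at 23.0, 17.5 and 14.4, and theca-like cells, at 14.4, 15.4 and 9.73. Stromal *Igfbp7* was thus ordered unlike stromal *Igfbp4*, and set 3 over set 1 was 0.626 (0.615 to 0.637). Granulosa-like cells were at 0.451 (0.422 to 0.482), 0.490 (0.451 to 0.532) and 0.409 (0.381 to 0.438), at a ratio of 0.0290 (0.0278 to 0.0303) over all other cells. Myeloid-like cells, at 0.600 (0.429 to 0.817), did not differ from GCs beyond counting error over all sets, nor in sets 2 and 3, but were above them in set 1 (ratio 1.66, 1.01 to 2.59). A UMI of *Igfbp7* was found at 3000 UMIs a cell in 96.7% of endothelial-like, 10.1% of granulosa-like and 11.9% of myeloid-like cells (8.03 to 16.7% for the last), whose median depths were 5064, 6742.5 and 4142 UMIs. Over all sets the share in GCs thus did not differ beyond counting error from that in myeloid-like cells. How much of either share is background was not tested. Within GCs, atretic over antral mural cells was 1.16 (0.952 to 1.41), 2.37 (1.84 to 3.02) and 1.75 (1.26 to 2.47) in sets 1, 2 and 3, and the interval of set 1 includes 1. The endothelial clusters led by *Ccl21a* and *Mmrn1* were far below the others, at 3.67 (3.08 to 4.33) in set 1 and 3.04 (2.20 to 4.10) in set 2, against 45.8 (44.8 to 46.8) and 49.1 (48.2 to 50.01) in the clusters led by *Ctla2a*. *Polr2b* and *Gm34648* overlap *Igfbp7* (5:77349240-77408041) on the opposite strand.

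*Pappa*, the protease of IGFBP4 and IGFBP5, was found in GCs, in theca in set 2 and in stroma in set 3. GCs stood at 0.128 (0.113 to 0.146), 0.337 (0.313 to 0.362) and 0.20 (0.183 to 0.218) in sets 1, 2 and 3. Theca-like cells were at 0.0756 (0.0618 to 0.0917), 0.381 (0.324 to 0.444) and 0.122 (0.0911 to 0.160). Stroma-like cells were at 0.0368 (0.0265 to 0.0498), 0.0623 (0.0473 to 0.0806) and 0.363 (0.338 to 0.390). Set 2 was thus the highest in GCs and theca, and set 3 in stroma. In stroma set 3 over set 2 was 5.82 (4.46 to 7.74), and the stroma cluster with *Bdnf* and *Wnt5a*, which also had the most *Igfbp4* and *Igf1* in set 3, was at 0.564 (0.521 to 0.610). That cluster held 44.5% of the stroma-like cells of set 3, and the one led by *Lgi2* and *Col15a1*, at 0.189 (0.163 to 0.217), held 45.6%. In set 2 the largest stroma clusters, led by *Tcf21* and *Sfrp1* (45.7%) and by *Mfap5* and *Clec3b* (30.3%), were at 0.0533 and 0.0481. Both large clusters of set 3 were thus above those of set 2, and the part of the make-up of stroma in its differences between sets was not tested. At 3000 UMIs a cell, a UMI of *Pappa* was found in 5.30% of granulosa-like cells, 4.37% of theca-like and 4.08% of stroma-like cells, against 0.346% of smooth muscle and pericyte-like cells. In set 2 the share was 11.2% in theca and 7.81% in GCs, and in set 3 it was 7.96% in stroma and 5.25% in GCs.

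Within GCs, antral mural cells were at 0.243 (0.215 to 0.275), 0.574 (0.530 to 0.620) and 0.433 (0.357 to 0.520) for *Pappa*, and preantral cells at 0.0102 (0.00102 to 0.0391), 0.0367 (0.0198 to 0.0622) and 0.0173 (0.00761 to 0.0338). GCs with none of the follicular profiles were at 0.0332, 0.142 and 0.239, and mitotic GCs at 0.0850, 0.295 and 0.242. In set 3 the former held 445 of the 648 *Pappa* UMIs of GCs, against 138 in antral mural cells. The ratio of preantral over antral mural cells was 0.0506 (0.0317 to 0.0768) over all sets, and that of atretic over antral mural cells 0.0983 (0.0648 to 0.143). In each set *Pappa* was thus higher in antral mural than in preantral cells and its substrate *Igfbp5* higher in preantral cells, with the smallest *Igfbp5* ratio of the 2 profiles, 1.77, in set 3. By cluster, *Pappa* was at 0.375 (0.321 to 0.435), 1.15 (1.05 to 1.27) and 0.457 (0.410 to 0.508) in the *Comp* clusters of sets 1, 2 and 3, which were low in *Igf1*, and at 0.415 (0.363 to 0.472) in the cluster of set 2 led by *Elovl4* and *Nts*, which had *Igf1* at 2.02. In the *Kctd14* cluster of set 2, where *Igfbp5* was at 8.38, it was at 0.0176 (0.00339 to 0.0529). Of the cells of the *Comp* cluster of set 3, 49.2% were granulosa-like.

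**Figure D4:**
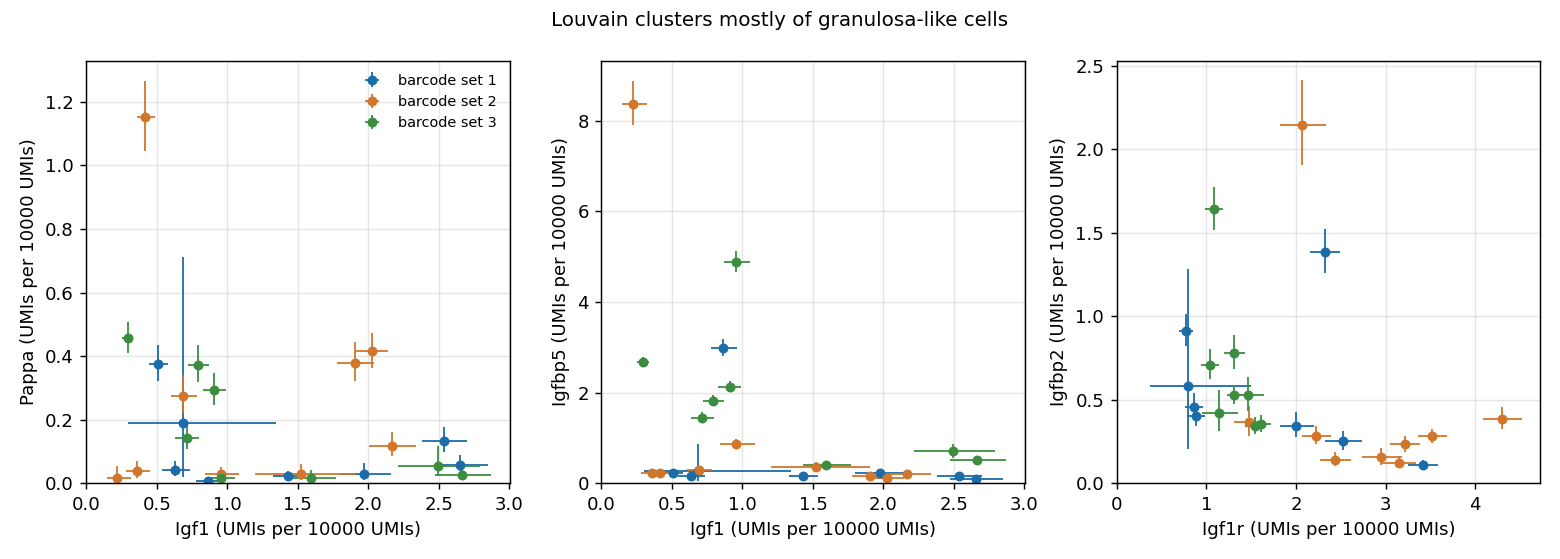
Louvain clusters of at least 50 cells in which granulosa-like cells were the commonest class, in barcode sets 1, 2 and 3 (colours), placed by their levels of *Igf1* and *Pappa*, *Igf1* and *Igfbp5*, and *Igf1r* and *Igfbp2* (all axes in UMIs per 10000 UMIs); bars are 95% counting intervals. The cluster with the highest *Pappa* (1.15) has *Igf1* at 0.418, that with the highest *Igfbp5* (8.38) has *Igf1* at 0.221, and the latter cluster also has the highest *Igfbp2* (2.15).

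Counts against all genes set these values in proportion. Genes with a mean level of at least 0.1 in the 2 groups compared entered each count. Of 8620 genes, 6.52% were 2-fold or more higher in granulosa-like than in all other cells, and 8.92% were 2-fold or more lower. Of 8 members counted, 0 were higher and 2 were lower, *Igfbp4* and *Igfbp7*, while *Igf2* and *Igfbp3* fell under the level needed. Between sets 1 and 2, 20.2% of genes differed 2-fold or more in granulosa-like cells, as did 1 of 8 members, *Pappa*. Between sets 2 and 3 the share was 23.3%, with 4 of 8 members, namely *Igf1r*, *Igfbp2*, *Igfbp4* and *Igfbp5*. Between sets 1 and 3 it was 14.7%, with 2 of 8, *Igfbp4* and *Igfbp5*. These counts depend on how a level is formed. With UMIs summed over the class, 0 members differed between sets 1 and 2 (17.2% of all genes), and with means of log values 0 differed in each of the 3 comparisons (0.862%, 1.2% and 1.1% of all genes). The median ratio over all genes in GCs was itself 0.751 for set 2 over set 1 and 1.25 for set 3 over set 2, so *Igf1r* at 1.68 and 0.444 and *Pappa* at 2.62 and 0.594 moved against it, and *Igfbp2* at 0.582 and 2.13 moved with it. For set 3 over set 1 the median was 0.957, and *Igfbp4* at 5.06 and *Igfbp5* at 2.79 stood above it. The median over the 8 members was 0.909, 0.857 and 1.07 for these 3 comparisons.

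The same counts differed between other classes. In theca-like cells 24.6% of genes differed 2-fold or more between sets 1 and 2, with 2 of 8 members (*Igf1r*, *Pappa*), 30.9% between sets 2 and 3, with 3 of 9 (*Igfbp3*, *Igfbp5*, *Pappa*), and 19.7% between sets 1 and 3, with 3 of 8 (*Igf1r*, *Igfbp3*, *Igfbp5*). In theca *Igfbp3* passed the level needed through set 3 alone, and *Pappa* passed it against set 1 through set 2 alone, so nothing is read from their places in these counts. In theca, too, the median gene was lower in set 2, at 0.738 of set 1, while *Igf1r* was 3.95-fold (3.57 to 4.38) above set 1. In stroma-like cells the shares were 3.78% (0 of 6 members), 16.3% (3 of 7) and 16.2% (3 of 7), and the members were *Igfbp4*, *Igfbp5* and *Pappa* in both comparisons with set 3. Stromal *Pappa*, at 0.0368 and 0.0623 in sets 1 and 2, passed the level needed through set 3 alone, so its place in these counts follows from the filter. In endothelial-like cells they were 2.42% (1 of 9, *Igfbp5*), 9.04% (3 of 9, *Igf1r*, *Igfbp2* and *Igfbp5*) and 10.5% (3 of 9, *Igf1*, *Igf1r* and *Igfbp2*). *Igfbp2* of endothelium was at 0.159, 0.103 and 0.526, on 52, 50 and 113 UMIs. Over all genes, the shares that differed between sets 1 and 2 were thus smaller in stroma and endothelium than in GCs and theca.

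Other genes of the system were taken from a list of 24. Granulosa-like cells were the highest class for 7 of them, cells in the gates of both stroma and smooth muscle for 5, endothelial-like cells for 4, theca-like and stroma-like cells for 3 each, and smooth muscle and pericyte-like and myeloid-like cells for 1 each, although 3 of the genes had fewer than 100 UMIs. The shares of all genes with each class highest, or past the rule that follows, were not counted, so nothing is read from these numbers. Genes of the list with a level of at least 1 and a ratio of at least 2 over all other cells numbered 7. In GCs these were *Foxo1*, a transcription factor that is shut out of the nucleus when IGF1 or FSH activates AKT, and *Grb14*, an adaptor that inhibits the insulin receptor. *Foxo1* was at 6.99 (6.88 to 7.11), 1.90 (1.84 to 1.96) and 2.26 (2.19 to 2.32) in sets 1, 2 and 3, and *Grb14* at 16.3 (16.1 to 16.4), 4.07 (3.99 to 4.16) and 5.10 (5.0 to 5.19). Set 1 was thus the highest in both genes. *Insr*, the insulin receptor, was highest in endothelial-like cells, at 2.28 (2.06 to 2.51), 2.29 (2.10 to 2.49) and 1.29 (1.11 to 1.49), where *Igf1r* was low.

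*Stc1*, whose product stanniocalcin-1 inhibits PAPP-A, was highest in theca-like cells, at 0.833 (0.778 to 0.890), 0.437 (0.376 to 0.506) and 2.97 (2.80 to 3.14) in sets 1, 2 and 3. Theca in set 2, where *Pappa* was highest, was thus lowest in *Stc1*. *Htra3*, a serine protease that can cleave IGFBPs, was highest in stroma-like cells, at 1.90 (1.81 to 1.99), 1.79 (1.71 to 1.87) and 0.392 (0.364 to 0.420). In stroma, set 3 was thus lowest in *Htra3* and highest in *Pappa*, while the intervals of sets 1 and 2 overlapped for both genes. *Igfbp6*, a binding protein that prefers IGF2, was at 5.17, 5.75 and 5.54 in cells in the gates of both stroma and smooth muscle and at 5.13, 5.38 and 5.55 in stroma-like cells. *Grb10*, an adaptor that dampens signalling of the insulin and IGF1 receptors, was at 1.85, 1.46 and 1.47 in the former cells and at 1.73, 1.48 and 1.44 in endothelial-like cells. Between sets *Igfbp6* varied less in stroma than in theca, where it was at 0.617, 0.609 and 3.85.

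The genes whose pattern was most like that of each member were sought over 21 points, 7 classes in 3 sets, among 6515 genes with a level of at least 0.5 in some point. The points share libraries and depth within a set, so Pearson's r of log2 levels is a description. *Igf2* was most like *Bvht* (r = 0.980), *Erg* (0.978) and *Arhgef15* (0.977), *Igfbp3* like *Gimap5* (0.944), *Kdr* (0.941) and *Abcb1a* (0.937), and *Igfbp7* like *Grb10* (0.957), *Tfpi* (0.955) and *Col4a1* (0.938). For *Igf2r* they were *Cdc42bpa* (0.916), *Tead2* (0.916) and *Btbd3* (0.912), for *Igfbp2* *Chst11* (0.923), *Srd5a1* (0.916) and *Slc25a30* (0.910), and for *Igfbp5* *Bod1* (0.911), *Lgalsl* (0.896) and *Cfl2* (0.877). For *Igf1r* they were *Pi4k2b* (0.905), *Zfp516* (0.867) and *Spsb1* (0.852), and for *Igf1* *Lpl* (0.896), *Itsn1* (0.791) and *Cd164* (0.784). For *Igfbp4* they were *Icam1* (0.852), *Rrbp1* (0.839) and *Wipf1* (0.839), and for *Pappa* *Mgat2* (0.833), *Ankrd9* (0.804) and *Peg10* (0.782). *Kdr* is a marker of the endothelial gate, and its place in the list follows from the classes. Among the members themselves *Igf2* and *Igfbp3* were most alike (0.935), and *Igf1r* and *Igfbp4* most opposed (-0.725). Outside endothelial-like cells *Igf2* reached at most 0.0411, below the 0.1 added to levels before logs were taken. Its r values thus largely reflect the contrast of endothelium with the other classes.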

How the data were processed

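Single-cell libraries were made on the 10x Genomics platform. The submitters' processing notes name Cell Ranger, Seurat and mm10, without versions or roles, and the annotation and the strand used in counting are not given in the sources used here. The authors deposited 1 table of natural log values, that is ln(1 + x), where x is a gene's UMIs scaled to a cell total of 10000. UMIs were worked back from it, and 100% of values came out whole within 0.01, for 240030587 UMIs in all, a median of 6347.5 and a minimum of 500 UMIs per cell. The median was 6093, 6352 and 6524 UMIs in barcode sets 1, 2 and 3, which share 27, 46 and 39 barcodes by pairs. The deposited columns name no sample beyond the barcode ending.

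Each cell was scored for lists of cell type markers, without the IGF genes, and gated at cut-offs of 0.2 to 0.4 of the score. Each marker was capped at the 95th percentile of the cells of its own set with a UMI of it, so scores are relative to the set. Profiles within GCs were cut at 0.25 to 0.35. The cut-offs were set after the scores and clusters had been seen, and members, gene lists and rules were chosen with earlier results of these data known. Each set was also clustered by Louvain, with the IGF genes left out (2000 variable genes, 30 components, 15 neighbours, resolution 1, 71 clusters in all). Scrublet called 39 cells (0.123%), too few to have worked, so doublets were kept, and leaving out the 8% of highest score was an alternative.

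A level is the mean over cells of UMIs per 10000. Its 95% interval is the exact Poisson interval of an effective count, the count with the same relative counting error, and that of a ratio is the exact binomial interval of 2 such counts. Intervals cover counting error only, and with 1 library per time point no test was made. Shares of cells with a UMI were taken after thinning to 3000 UMIs. Genes with a mean level of at least 0.1 over the groups compared were counted as different at 2-fold. The rule for naming took all 10 members, those of 24 other genes of the system with a level of at least 1 and a ratio of at least 2 between their highest class and all other cells, and for each member the 3 genes of highest r of log2(level + 0.1). Cluster names are leading genes by fold, and levels by cluster cover all cells of a cluster, whatever their gate. Python 3.11.15, numpy 2.4.6, scipy 1.17.1, pandas 2.3.3, scanpy 1.11.5, python-igraph 0.11.9 and matplotlib 3.10.9 were used. The knockdown, knockout and spatial experiments of the study were not analysed here.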

Additional observations from a re-analysis of the deposited data

Results flagged for a closer look

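The ratio of 2 barcode sets went opposite ways in 2 classes for 4 of the 9 members that could be compared, against 8.73% of 8936 genes with a mean level of at least 0.1 in 2 or more classes, each by 1.5-fold or more with intervals on opposite sides of 1, and with 1 library per time point the difference was not tested. One of the 4, *Pappa*, passed that level in stroma through set 3 alone, where it was high, so nothing is read from the count. *Igf1* in set 3 over set 2 was 1.7535 in stroma-like cells and 0.5627 in endothelial-like cells, where it rested on 35 and 83 UMIs. *Igf1r* in set 3 over set 1 was 2.0993 in theca-like cells and 0.4957 in endothelial-like cells. *Igfbp2* in set 3 over set 1 was 3.3019 in endothelial-like cells and 0.5991 in theca-like cells. *Pappa* in set 3 over set 2 was 5.8239 in stroma-like cells, 0.5944 in granulosa-like cells and 0.3203 in theca-like cells.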

How the results depend on the processing

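Counts of members were recomputed under 8 other ways of processing and 2 that were chosen after seeing the data. Under the former, 44 counts stayed within 1.5 times and 4 did not. With UMIs summed over a class in place of the mean over cells, 0 members differed 2-fold between sets 1 and 2 in granulosa-like cells, against 1, while 17.2% of all genes did, against 20.2%. With means of the deposited log values, which shrink low levels, 0 differed between sets 1 and 2, 0 between sets 2 and 3, against 4, and 0 between sets 1 and 3, against 2, and 0.862%, 1.2% and 1.1% of all genes did. Against gated cells alone (chosen after seeing the data), 1 member, *Igf1r*, was 2-fold higher in granulosa-like cells, against 0, as were 8.87% of all genes, against 6.52%. Without the filter on low levels (also chosen after seeing the data), 4 members were lower in granulosa-like cells, against 2, and 3 differed between sets 1 and 2, against 1, while over all genes these shares were 28.0% and 37.0%, against 8.92% and 20.2%. The number of members with the same highest class in all 3 sets, 5 of 10, ranged from 5 to 7 under the former, while the share of genes with a level of at least 0.1 in some class was 38.9% and ranged from 38.1% to 41.8%. The ratio of *Igf2* between sets in granulosa-like cells, which rests on 14 UMIs, reversed: set 2 over set 1 was 4.17, but 0.8059 with Louvain clusters, 0.6524 with summed UMIs and 0.669 without the cells of highest doublet score, and set 3 over set 2 was 0.173, but 1.1721 with clusters and 1.0047 without those cells. Of the other single ratios under the former 8, 206 moved by less than their counting error and 109 by more. A change of direction was looked for only in ratios of 2-fold or more, so smaller ratios among the 109 may have crossed 1. Depth limits *Igf2*, *Igfbp3* and *Pappa*, whose levels in several classes rest on under 20 UMIs. No paired analysis was possible because each time point has 1 library.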

Other observations

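Some IGF genes were high in cell groups too small for the comparisons above. Epithelial-like cells, gated on *Upk3b*, *Krt7*, *Krt19* and other markers of the ovarian surface, numbered 27, of which 7, 19 and 1 lay in sets 1, 2 and 3. They had *Igfbp5* at 68.9 (64.7 to 73.2), against 2.12 (1.86 to 2.39) in smooth muscle and pericyte-like cells, the highest of the 7 larger classes. In set 1 the level was 67.2 (60.7 to 74.3) and in set 2 it was 73.1 (67.8 to 78.8), and in the single cell of set 3 it had 0 UMIs. The cluster with *Lgals2*, *Upk3b* and *Krt19* in set 2 (20 cells) was at 71.8 (67.2 to 76.5). *Igfbp2* was at 1.85 (1.36 to 2.45) in the epithelial-like cells, near the 2.06 of theca-like cells.

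Cells led by S100a8 and S100a9, genes known from neutrophils, formed clusters of 23 cells in set 2 and 21 in set 3, with *Igf1r* at 2.30 (0.967 to 4.62) and 4.45 (1.91 to 8.80). Macrophage-type clusters led by *Lyz2* and C1qa had *Igf1r* at 0.404 (0.191 to 0.752), 0.558 (0.299 to 0.95) and 0.255 (0.134 to 0.438) in sets 1, 2 and 3. The clusters led by S100a8 and S100a9 had median depths of 1188 and 857 UMIs, and 60.9% and 66.7% of their cells were myeloid-like.

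Some clusters consisted mostly of cells that passed no gate, and their levels cover all their cells. Those led by *Rnase1*, *Pik3ip1* and *Ntn4*, with 88.7% and 80.0% of such cells, had *Igf1* at 0.153 (0.107 to 0.211) in set 1 and 0.178 (0.103 to 0.286) in set 2. *Igf1r* was at 3.48 (3.24 to 3.73) in that cluster of set 1. Of the clusters mostly of ungated cells, those with *Sfrp4*, *Ptgfr* or *Akr1c18* among their leading genes had 72.8%, 77.3% and 78.8% of such cells in sets 1, 2 and 3. They had *Pappa* at 0.466 (0.413 to 0.523), 1.04 (0.925 to 1.17) and 0.601 (0.445 to 0.793), together with *Igfbp2* at 1.23, 1.64 and 1.80.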
